A study of Mus musculus with 9 samples.

Results

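The genes for spliceosomal proteins, SR proteins and heterogeneous nuclear ribonucleoproteins (hnRNPs) were followed through polarization of RAW264.7, an established line of mouse cells with macrophage properties, with and without potassium iodide. They were taken by symbol, as every gene whose name begins with Snrp, Sf3a or Sf3b, Hnrnp, or with Srsf, Lsm or Prpf and a number. The rule found 75 of the 12474 rows listed in each library: 10 Snrp, 9 Sf3, 13 Prpf, 13 Lsm, 10 Srsf and 20 Hnrnp genes. The rule itself uses no measured value, but it was set with earlier results of these data known. Snrpf, Snrpn and Srsf12, which carry names of the same kind in the GENCODE annotation, are not analysed here. There were 3 groups of 3 poly(A)-selected RNA libraries, all from RAW264.7 cells of genotype WT grown in DMEM with fetal bovine serum. Mock cells were untreated. M1 cells were treated with 100 ng/ml lipopolysaccharide (LPS) plus 50 ng/ml mouse interferon gamma (mIFNγ), and I cells received both agents at these doses together with potassium iodide at 20 mM. The length of treatment is not given in the sources used here, and no group received another salt, so iodide, potassium and the added osmolarity cannot be told apart. Whether replicate libraries stem from separate cultures is not stated, and p-values therefore speak only of the spread among libraries, which may be technical.

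Introns are removed from pre-mRNA by the spliceosome, which assembles from small nuclear ribonucleoproteins (snRNPs), each a small nuclear RNA in a ring of Sm or Lsm proteins with proteins of its own. SR proteins bind exons and recruit this machinery, and hnRNPs coat the nascent RNA and often oppose them at a splice site. Both families also act in mRNA export, stability and translation, and many of their genes hold their own levels in check through exons that send the transcript to decay. In macrophages several of them are known to act on the mRNAs of cytokines.

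The values are FPKM, fragment counts divided by the length of the gene and by the depth of the library, and each is a level summed over all transcripts of a gene, so the use of single exons or isoforms is not read here. Differences are given on the scale of log2(FPKM + 1), where 1 is close to a 2-fold difference for all but low genes, with the standard error (SE) from a limma model of all 9 libraries. A gene is called higher or lower at a Benjamini-Hochberg adjusted p under 0.05 over the 11156 rows tested, which include all 75 members. The depths recovered from these values were 17431070 to 25470730 fragments per library, so that 1 fragment on a 1 kb gene equals 0.039 to 0.057 FPKM. Of the macrophage markers checked, 10 of 10 were in the files and 9 were above the low-value filter, whereas 1 of 8 lymphocyte markers (Lck) and none of 13 neutrophil, fibroblast and epithelial markers was among the rows, and 3 of 4 dendritic cell markers were listed below the filter. All 6 genes checked for polarization, among them Nos2, rose in M1. In bulk RNA, fewer cells that express a gene and less of its RNA per cell cannot be told apart.

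How the libraries are scaled bears on every count below. The median difference over all rows tested was -0.23 in M1 against Mock, -0.065 in I against M1 and -0.30 in I against Mock on the FPKM scale. With median-of-ratios factors (relative log expression, RLE), which centre the bulk of genes, the same medians were 0.019, -0.014 and 0.0004. Family counts are therefore given with both scalings.

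The promoters are shown first, for the genes whose levels are reported later. RefSeq promoters on GRCm38.p6, each running from 250 bases before to 50 bases after a transcript start, were matched by symbol to 64 of the 75 genes, with 83 promoters between them. The motif CCGGAAG, the core bound by ETS factors, searched on both strands, was found in 31.3% of the 83 promoters and in 8.9% of all 32851 promoters of the table. It was found in 7 of 8 Sf3 promoters (6 of 7 genes; the pair of Sf3b2 promoters overlaps), 4 of 9 Snrp, 6 of 13 Srsf, 4 of 14 Prpf, 4 of 27 Hnrnp and 1 of 12 Lsm promoters. The GC box GGGCGG was found in 71.1% of member promoters and 35.7% of all, the CCAAT box CCAAT in 47.0% and 37.4%, the E box CACGTG in 13.3% and 7.2%, the NRF1 core GCATGCGC in 7.2% and 2.7%, and the TATA box TATAAA in 7.2% and 13.6%, all on both strands. These motifs were chosen with results of these data known, and promoters rich in G and C hold several of them more often: the median GC content was 61% in member promoters and 52.7% in all. A match is a description of the letters, not of a bound site.

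Windows are printed for some of the SF3 genes and for the SR genes Srsf2 and Srsf3. They hold 140 bases, from 120 before to 20 after the start, 5′ to 3′ on the gene's strand. Every match to these motifs is in capitals. Sf3a1 (chr11:4160234-4160373, plus strand), Sf3b2 (chr19:5295436-5295575, minus strand) and Sf3b6 (chr12:4817488-4817627, plus strand) hold the ETS core within 120 bases of the start. Sf3b1 (chr1:55027459-55027598, minus strand) is the SF3 gene of the 7 without that core in its promoter. The window of Sf3b3, which is not printed, holds no ETS core either. Srsf2 (chr11:116853075-116853214, minus strand) and Srsf3 (chr17:29032540-29032679, plus strand) are shown because both hold a TATA box and a CCAAT box close to the start.
Sf3a1: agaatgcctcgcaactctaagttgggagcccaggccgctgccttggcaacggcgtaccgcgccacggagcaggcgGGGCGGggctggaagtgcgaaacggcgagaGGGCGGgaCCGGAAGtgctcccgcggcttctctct
Sf3b2: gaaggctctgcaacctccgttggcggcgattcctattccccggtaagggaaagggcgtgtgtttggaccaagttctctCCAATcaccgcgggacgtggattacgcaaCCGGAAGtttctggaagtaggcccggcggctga
Sf3b6: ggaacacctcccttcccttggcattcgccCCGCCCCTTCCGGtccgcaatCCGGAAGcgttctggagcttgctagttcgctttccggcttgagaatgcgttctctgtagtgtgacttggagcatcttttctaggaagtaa
Sf3b1: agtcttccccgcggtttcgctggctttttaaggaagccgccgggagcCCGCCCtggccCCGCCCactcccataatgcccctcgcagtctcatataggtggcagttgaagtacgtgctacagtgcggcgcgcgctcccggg
Srsf2: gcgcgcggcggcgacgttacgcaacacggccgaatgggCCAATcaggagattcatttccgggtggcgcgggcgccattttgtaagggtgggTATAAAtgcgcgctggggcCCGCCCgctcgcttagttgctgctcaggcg
Srsf3: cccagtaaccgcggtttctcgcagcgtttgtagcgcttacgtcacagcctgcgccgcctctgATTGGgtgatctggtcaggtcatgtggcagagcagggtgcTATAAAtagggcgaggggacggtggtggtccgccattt
In Sf3a1 the ETS core begins 7 bases and in Sf3b2 13 bases before the start, and Sf3b6 holds it on both strands, with first bases at -85 and -70. The TATA box begins 29 bases before the start in Srsf2 and 18 bases before it in Srsf3.

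In M1 against Mock most members were lower. Of the 75 genes 67 were called lower and 5 higher, which is 89.3% and 6.67%, against 55.3% lower and 30.5% higher among all rows tested. In 65 members all 3 M1 libraries lay below all 3 Mock libraries, as in 55.6% of all rows, and in 5 all lay above, as in 30.7%. The median difference of the set was -0.76, against -0.23 for all rows, and 26 members had a called fall of at least 1 on the log2 scale, against 16.1% of all rows. With RLE scaling 51 members were called lower and 13 higher, against 42.1% and 43.7% of all rows, so the excess of falls was present with both scalings. Snrpc, Sf3b5, Lsm14a, Hnrnpc and Hnrnpdl, called slightly lower on the FPKM scale, were called higher with RLE scaling, and their direction depends on the scaling. The summed level of the 75 genes was 2982 ± 6.65 FPKM in Mock, against 1478 ± 6.48 in M1 and 1413 ± 6.86 in I (SD, n = 3 each), 2.02-fold lower in M1 than in Mock, or 1.62-fold with RLE scaling. Their share of the FPKM sum of a library was 1.094% to 1.105% in Mock, with 0.467% to 0.476% for M1 and 0.455% to 0.466% for I.

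The second comparison adds potassium iodide to the same stimulation. Below, with iodide is short for I against M1 and does not single out iodide from potassium or osmolarity. In I against M1, 24 members were called higher (32%) and 36 lower (48%), against 24.9% and 39.3% of all rows tested, and the median difference of -0.085 lay near the -0.065 of all rows. In 25 of the 75 members all I libraries lay above all M1 libraries and in 35 below, against 26.4% and 40.8% of all rows. Over the whole set, then, the median lay near the background, while the called shares were above it in both directions. With RLE scaling 30 of the 75 members were higher and 30 of the 75 lower, again above the shares of all rows (30.4% and 32.5%). The counts differed by family: 10 of 10 Snrp and 9 of 13 Lsm genes were lower, and none of the Snrp and 2 of the Lsm genes higher, whereas 7 of 10 Srsf and 10 of 20 Hnrnp genes were higher, with 1 and 6 lower. Sf3 had 2 higher and 6 lower of 9, and Prpf 3 higher and 4 lower of 13. With RLE scaling the counts of higher and lower were 0 and 9 for Snrp, 3 and 8 for Lsm, 2 and 5 for Sf3, 5 and 3 for Prpf, 8 and 1 for Srsf, and 12 and 4 for Hnrnp (30.4% and 32.5% of all rows), and no called member changed direction. No test compared the families with each other, since genes are not replicates.

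In I against Mock, which shares the Mock and I libraries with the other comparisons, 67 members were lower and 6 higher (58.6% and 28.2% of all rows tested), with a median of -0.90 against -0.30. The family medians were -0.93 for Snrp, -0.87 for Sf3, -0.61 for Prpf, -0.54 for Lsm, -1.57 for Srsf and -1.05 for Hnrnp. With RLE scaling 59 members were lower and 11 higher (42.7% and 42.9% of all rows).

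**Figure D1:**
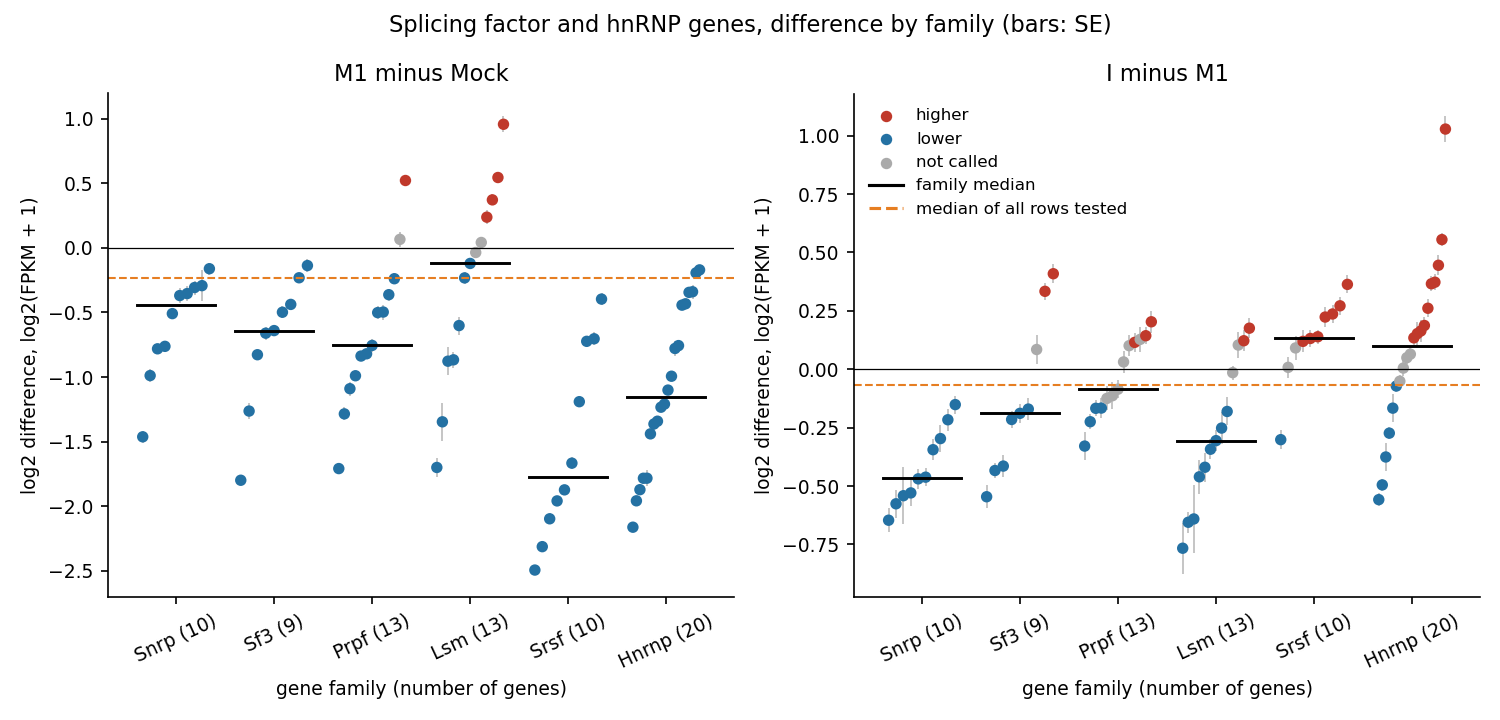
Difference of each of the 75 genes on the log2(FPKM + 1) scale, M1 minus Mock on the left and I minus M1 on the right, by family, with SE bars from the model; black lines are family medians, the dashed line is the median of all rows tested, and red, blue and grey points were called higher, lower or neither. All 10 Srsf and all 20 Hnrnp genes lie below 0 in M1 minus Mock, and all 10 Snrp genes lie below 0 in both panels.

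SR proteins bind exonic enhancers through RNA recognition motifs and contact the splicing machinery through domains rich in arginine and serine. All 10 of their genes were lower in M1 than in Mock, against 55.3% of all rows tested, with a median of -1.77. From the FPKM values 7 of them were lower by at least 1 on the log2 scale, against 16.1% of all rows. Among these 7, Srsf5 was at -0.88 with RLE scaling. With RLE scaling 9 of 10 were lower and none higher, against 42.1% and 43.7% of all rows. Their summed level was 459 ± 1.38 FPKM in Mock, against 152 ± 0.981 in M1 and 168 ± 3.93 in I (SD, n = 3 each), 3.01-fold lower in M1 than in Mock, or 2.42-fold with RLE scaling. From M1 to I it was higher by a factor of 1.105, or 1.16 with RLE scaling.

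The deepest fall of the 75 genes was that of Srsf6 (SRp55; chr2:162931528-162937121, plus strand, GRCm38). It was measured at 66.3, 65.01 and 63.9 FPKM in Mock, 10.5, 10.9999 and 10.6 in M1 and 11.7, 11.97 and 12.1 in I. The groups do not overlap, M1 and I both lay far below Mock, and the 3 I libraries lay just above the 3 M1 libraries. Srsf6 was 6.07-fold lower in M1 than in Mock, a log2 difference of -2.50 ± 0.030 (SE; adjusted p = 8.29e-14). The difference of I from M1 was 0.14 ± 0.030 (SE; adjusted p = 0.00198).

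Srsf1, the founding member of the family (ASF/SF2), had the next deepest fall among the SR genes, with 71.8, 70.9 and 68.7 FPKM in Mock, 13.6, 13.1 and 13.4 in M1 and 17.4, 16.04 and 15.6 in I. No library of one group overlapped another group. The differences were -2.31 ± 0.039 (SE; adjusted p = 9.82e-13) for M1 against Mock and 0.27 ± 0.039 (SE; adjusted p = 0.000127) for I against M1.

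Srsf2 (SC35), a marker protein of nuclear speckles, was measured at 68.5, 66.4 and 68.5 FPKM in Mock, 16.9, 16.001 and 17.1 in M1 and 20.7, 21.9 and 22.7 in I. Its rise with iodide was the largest among the 7 SR genes called higher, at 0.36 ± 0.038 (SE; adjusted p = 1.24e-05), after a difference of -1.96 between M1 and Mock. In the annotation 25.3% of its exon bases are shared with Mettl23 and Mfsd11, and strand use in the counting is not stated, so part of its reads could belong to these genes.

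Srsf3, the smallest SR protein, which also serves as an adaptor for mRNA export, stood at 33.5, 30.8 and 32.7 FPKM in Mock, 7.005, 6.895 and 6.45 in M1 and 8.34, 8.07 and 7.84 in I, with differences of -2.10 and then 0.22. Srsf5 (SRp40) fell less, from 63.5 ± 1.68 to 27.3 ± 0.8297 FPKM (SD, n = 3), and was 32.3 ± 1.54 in I, a difference from M1 of 0.24. Srsf10, a splicing repressor when dephosphorylated, was 27.5, 26.98 and 26.1 in Mock, 8.34, 7.36 and 7.65 in M1 and 8.97, 8.29 and 8.35 in I. Its fall of 1.67 kept all M1 libraries below Mock, but M1 and I overlap and its call in I against M1 (adjusted p = 0.0452) was lost when any library but M1 replicate 1 or I replicate 2 was left out (adjusted p from 0.0527 to 0.162).

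Srsf7 (9G8), which shares the export role of Srsf3, was the SR gene called lower with iodide. It was measured at 47.9, 50.2 and 50.3 FPKM in Mock, 13.4, 12.7 and 12.2 in M1 and 10.3, 10.5 and 9.77 in I, so each group lay below the one before it. Its differences were -1.87 ± 0.041 (SE; adjusted p = 6.74e-12) for M1 against Mock and -0.30 ± 0.041 (SE; adjusted p = 8.45e-05) for I against M1. Srsf11 rose with iodide by 0.13 after a fall of 0.72. Srsf4, at 0.091 (adjusted p = 0.131), and Srsf9, at 0.0082 (adjusted p = 0.883), did not pass the test in I against M1, and 43.0% of the exon bases of Srsf4 are shared with Gm12992.

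**Figure D2:**
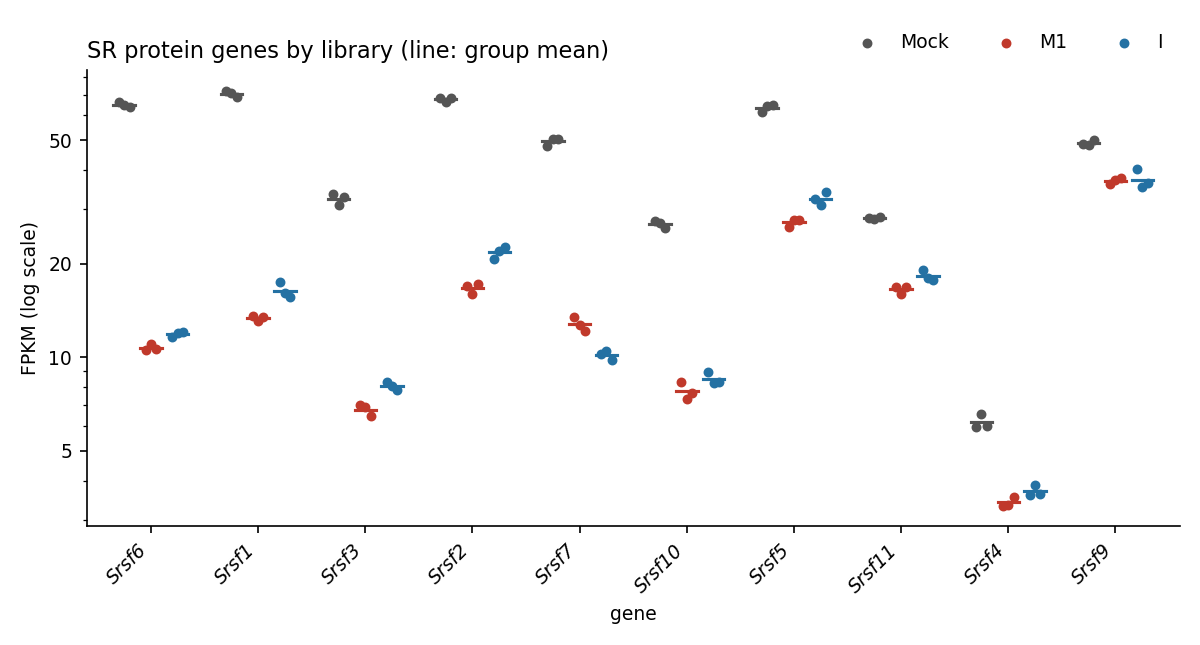
FPKM of the 10 SR protein genes in each of the 9 libraries on a log axis, ordered by the difference of M1 from Mock; points are libraries (grey Mock, red M1, blue I) and lines are group means of 3. Every gene lies lower in M1 than in Mock, and Srsf7 is the gene whose I libraries all lie below its M1 libraries.

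The hnRNPs were the most abundant of the 6 families, at a summed level of 1486 ± 1.15 FPKM in Mock, against 656 ± 4.72 in M1 and 656 ± 5.73 in I (SD, n = 3 each). All 20 genes were lower in M1 than in Mock, against 55.3% of all rows tested, with a median of -1.16. From the FPKM values 11 were lower by at least 1 on the log2 scale, against 16.1% of all rows. With RLE scaling 16 were lower and 2 (Hnrnpc and Hnrnpdl) higher, against 42.1% and 43.7% of all rows. The sum was 2.26-fold lower in M1 than in Mock, or 1.82-fold with RLE scaling. On the FPKM scale the near-equal sums of M1 and I hide opposite movements. With iodide 10 genes were higher and 6 lower, against 24.9% and 39.3% of all rows, with differences from -0.56 to 1.03. With RLE scaling the sum was higher in I than in M1 by a factor of 1.05, and 12 genes were higher and 4 lower (30.4% and 32.5% of all rows).

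Hnrnpa1 and Hnrnpa2b1 encode the main A-type hnRNPs, which bind the nascent transcript and commonly repress nearby splice sites. Hnrnpa1 was measured at 229.8, 232 and 238 FPKM in Mock, 101, 99.4 and 95.96 in M1 and 69.7, 70.2 and 69.1 in I. It fell in M1, by 1.23 ± 0.025 (SE; adjusted p = 4.22e-12), and was lower again in I, at -0.50 ± 0.025 (SE; adjusted p = 5.66e-08). Hnrnpa2b1 (chr6:51460932-51469894, minus strand) was measured at 162, 163 and 164 FPKM in Mock, 45.2, 42.02 and 43.96 in M1 and 63.9, 64.1 and 66.1 in I. It differed by -1.87 ± 0.029 (SE; adjusted p = 5.66e-13) in M1 against Mock and by 0.56 ± 0.029 (SE; adjusted p = 7.04e-08) in I against M1. The groups do not overlap for either gene, and I lies at the bottom for Hnrnpa1 and in the middle for Hnrnpa2b1. The ratio of Hnrnpa2b1 to Hnrnpa1 within a library lay between 0.688 and 0.703 in Mock, 0.423 and 0.458 in M1, and 0.913 and 0.958 in I, a ratio that a single factor per library, as in RLE scaling, does not move. It was chosen after the values were seen, and Hnrnpa1 has processed copies in the genome that can share its reads.

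Hnrnph3, of the H and F group that binds runs of G, had the largest difference between I and M1 of the set (chr10:63014664-63024217, minus strand). It was measured at 9.07, 8.68 and 8.9000 FPKM in Mock, 6.99, 6.66 and 6.79 in M1 and 13.5, 15.96 and 15.4 in I, with all I libraries above all others. It was the member with a called rise of at least 1 on the log2 scale in I against M1 (1.06% of all rows tested), 2.197-fold, with a difference of 1.03 ± 0.054 (SE; adjusted p = 6.98e-08). It also lay above Mock, by 0.69 ± 0.054 (SE; adjusted p = 2.67e-07). Its small fall in M1 (-0.34) did not pass the test with RLE scaling (-0.060; adjusted p = 0.306). The related genes moved less with iodide, at 0.065 for Hnrnph1 (adjusted p = 0.0649), 0.13 for Hnrnph2 (adjusted p = 0.00436) and 0.050 for Hnrnpf (adjusted p = 0.125).

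Hnrnpm and Hnrnpu had the deepest falls of the family in M1. Hnrnpm, known in macrophages for acting on Il6 pre-mRNA, stood at 59.03, 58.5 and 59.6 FPKM in Mock, 12.2, 12.1 and 12.99 in M1 and 16.4, 16.1 and 16.3 in I. Hnrnpu, a nuclear scaffold protein that binds both chromatin and RNA, stood at 110.4, 109.8 and 111 FPKM in Mock, 28.3, 26.8 and 27.8 in M1 and 34.6, 35.9 and 37.8 in I. Both fell and then rose in part: Hnrnpm by -2.16 and then 0.37, and Hnrnpu by -1.96 and then 0.37, with adjusted p of 2.64e-06 and 4.2e-06 for the rises. In neither gene do the groups overlap.

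Hnrnpd (AUF1) and Hnrnpa0 bind AU-rich elements in the 3′ ends of short-lived mRNAs, cytokine mRNAs among them. Hnrnpd was 17.5, 16.7 and 18.4 FPKM in Mock, 6.24, 6.44 and 6.27 in M1 and 9.04, 8.56 and 9.28 in I, a fall of 1.34 and a rise with iodide of 0.45 ± 0.043 (SE; adjusted p = 6.83e-06). Hnrnpa0 fell from 126 ± 2.83 to 54.2 ± 4.39 FPKM (SD, n = 3), and its iodide difference was 0.15 (adjusted p = 0.0188). Hnrnpl, which binds CA repeats, had -0.99 and then 0.26. Its paralog Hnrnpll, known for the splicing of CD45 in lymphocytes, went down in both steps, from 9.62, 9.78 and 9.59 through 5.57, 4.61 and 5.51 to 3.6998, 3.804 and 3.87, with -0.78 and -0.38.

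Hnrnpc, a protein that measures and packages nascent RNA and binds runs of U, was the gene of the family whose fall came mainly with iodide. It was measured at 77.7, 79.1 and 76.5 FPKM in Mock, 70.2, 65.7 and 67.7 in M1 and 45.1, 46.4 and 45.9 in I. Its difference was -0.56 ± 0.029 (SE; adjusted p = 5.87e-08) for I against M1. Between M1 and Mock it was -0.19 on the FPKM scale and 0.12 with RLE scaling, both past the threshold, so no direction is given for that step. Hnrnpk, a poly(C)-binding protein, was measured at 120.01, 119 and 118 FPKM in Mock, 89.4, 88.04 and 86.3 in M1 and 81.9, 85.8 and 83.1 in I. Its difference in I against M1, -0.072, was lost with RLE scaling (adjusted p = 0.878) and when I replicate 1, I replicate 3, M1 replicate 1 or M1 replicate 2 was left out (0.0644 to 0.103). Hnrnpab, at 204 ± 1.33, 58.6 ± 2.14 and 56.5 ± 0.582 FPKM (SD, n = 3), fell in M1 by 1.78 and did not pass the test with iodide, and 29.1% of its exon bases are shared with Phykpl.

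**Figure D3:**
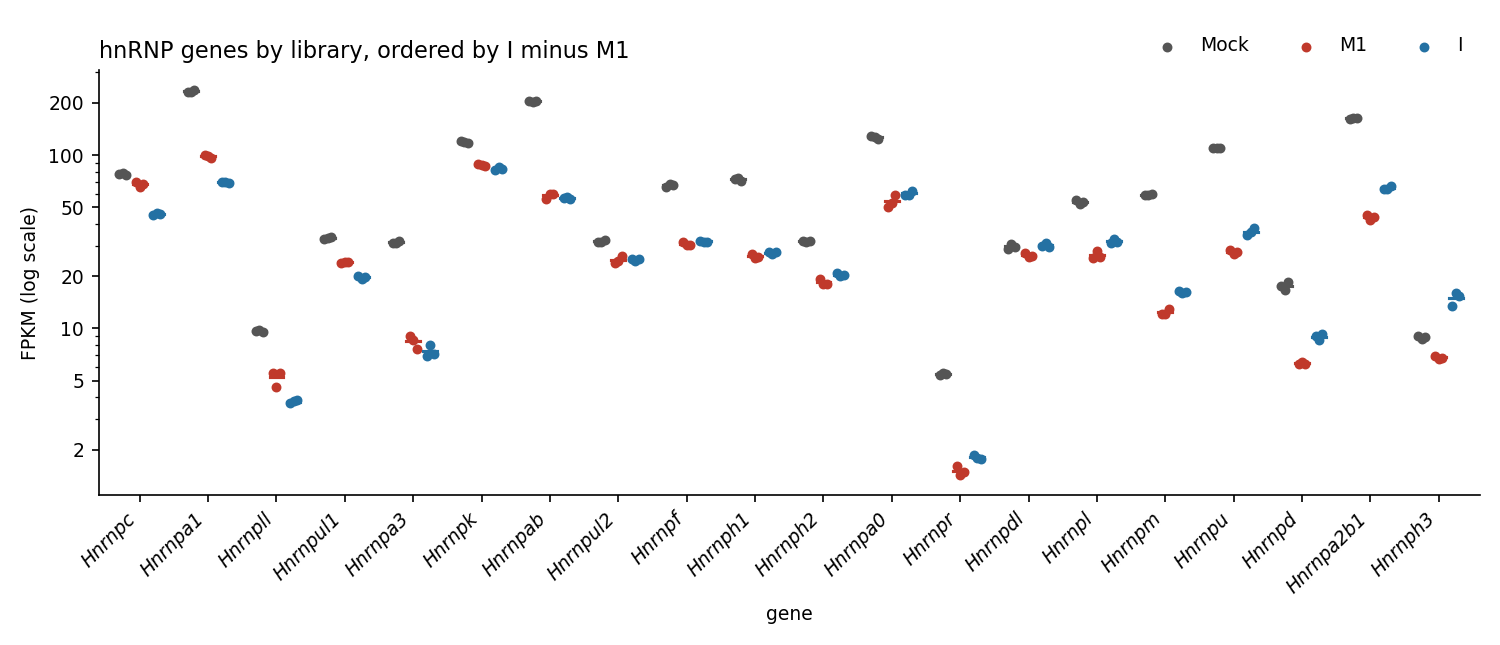
FPKM of the 20 hnRNP genes in each of the 9 libraries on a log axis, ordered from the lowest to the highest difference of I from M1; points are libraries (grey Mock, red M1, blue I) and lines are group means of 3. From Hnrnpc at the left to Hnrnph3 at the right the blue points pass from below the red points to above them.

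The Snrp genes encode the Sm proteins, which form the ring on U1, U2, U4 and U5 RNA, and proteins particular to U1 or U2. All 10 were lower in M1 than in Mock and all 10 were lower again in I than in M1, against 55.3% and 39.3% of all rows tested. Their summed level was 286 ± 4.02 FPKM in Mock, against 159.8 ± 3.55 in M1 and 118 ± 2.44 in I (SD, n = 3 each). The family median was -0.44 for M1 against Mock and -0.47 for I against M1. With RLE scaling 5 genes were lower and 1 (Snrpc) higher in M1, against 42.1% and 43.7% of all rows. In I against M1, 9 were lower with that scaling, against 32.5%. The fall with iodide was thus the step that held in nearly every member with both scalings.

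Of the 7 Sm ring genes 6 were measured, at a summed 203 ± 5.08, 104 ± 4.12 and 77.6 ± 3.52 FPKM in Mock, M1 and I (SD, n = 3 each). Snrpb, which encodes SmB, was the most abundant and fell most in M1, with 101, 99.6 and 103 FPKM in Mock, 34.3, 35.4 and 38.6 in M1 and 29.5, 30.3 and 32.9 in I. The differences were -1.46 ± 0.048 (SE; adjusted p = 1.34e-10) and then -0.22 ± 0.048 (SE; adjusted p = 0.00225). Snrpd1, which encodes SmD1, fell in both steps, with 27.6, 28.3 and 27.9 FPKM in Mock, 14.3, 13.3 and 13.1 in M1 and 9.03, 7.67 and 8.28 in I. Its differences were -0.99 ± 0.051 (SE; adjusted p = 7.06e-09) and -0.65 ± 0.051 (SE; adjusted p = 1.5e-06), and no groups overlap. Snrpd2, at 13.6, 14.4 and 16.3 FPKM in Mock, 11.4, 11.6 and 10.9 in M1 and 7.49, 6.88 and 7.39 in I, fell mainly with iodide: its difference was -0.58 ± 0.060 (SE; adjusted p = 1.1e-05) for I against M1, and its fall in M1 (-0.35) did not pass the test with RLE scaling (-0.061).

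Snrpd3 fell mainly in M1, from 17.2, 16.6 and 18.1 to 9.65, 9.88 and 9.39 FPKM, and was 8.496, 8.67 and 8.58 in I. Its second step, -0.15, was lost with RLE scaling (adjusted p = 0.0669). Snrpe and Snrpg had iodide differences of -0.53 and -0.54. The Snrpg libraries spread more than others within a group (13.6, 12.8 and 17.6 in Mock and 9.699, 12.1 and 13.5 in M1), and Mock and M1 overlap although the difference of -0.29 was called.

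Among the proteins of U1, Snrpa fell in both steps, with 33.01, 34.5 and 34.1 FPKM in Mock, 19.1, 19.8 and 19.7 in M1 and 14.4, 14.3 and 13.2 in I. Its differences were -0.76 ± 0.037 (SE; adjusted p = 4.29e-09) and -0.46 ± 0.037 (SE; adjusted p = 1.71e-06). Snrpc, which contacts the 5′ splice site, was 8.19, 8.21 and 8.68, 7.22, 7.56 and 7.33 and 5.94, 5.53 and 5.32 FPKM in Mock, M1 and I. Its M1 difference of -0.16 became 0.12 with RLE scaling, and the iodide difference of -0.34 was called with both. The U2 proteins Snrpb2 and Snrpa1 had -0.47 and -0.30 with iodide, after -0.51 and -0.37.

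SF3A and SF3B are the parts of the U2 snRNP that hold it on the branch site. All 9 of their genes were lower in M1 than in Mock on the FPKM scale, against 55.3% of all rows tested, with a median of -0.64. With RLE scaling 7 were lower and 1 (Sf3b5) higher, against 42.1% and 43.7% of all rows. With iodide Sf3b1 and Sf3b3 rose, while Sf3a1, Sf3a3, Sf3b2, Sf3b4, Sf3b5 and Sf3b6 fell. Sf3a2 did not pass the test (0.085, adjusted p = 0.239). These counts are 22.2% higher, near the 24.9% of all rows tested, and 66.7% lower, against 39.3%.

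Sf3b1, the large subunit that clamps the branch helix (chr1:54985169-55027481, minus strand), was measured at 46.2, 43.7 and 43.3 FPKM in Mock, 29.8, 26.8 and 27.8 in M1 and 37.1, 38.7 and 37.1 in I. It differed by -0.64 ± 0.041 (SE; adjusted p = 4.56e-08) in M1 and by 0.41 ± 0.041 (SE; adjusted p = 8.69e-06) in I against M1, and the 3 groups do not overlap. Its I libraries stayed below Mock on the FPKM scale (-0.23) and lay above it with RLE scaling (0.14). Sf3b3, which is also a subunit of the SAGA coactivator, fell further, with 36.5, 36.7 and 35.8 FPKM in Mock, 9.78, 9.26 and 10.1 in M1 and 12.3, 12.4 and 12.8 in I. Its differences were -1.80 ± 0.036 (SE; adjusted p = 3.49e-12) and 0.33 ± 0.036 (SE; adjusted p = 1.5e-05).

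Sf3a1, which joins SF3A to the rest of U2, moved the other way in the second step, with 18.6, 19.01 and 18.2 FPKM in Mock, 10.8, 12.3 and 11.2 in M1 and 7.205, 7.47 and 7.85 in I. Its differences were -0.66 ± 0.049 (SE; adjusted p = 1.64e-07) and -0.55 ± 0.049 (SE; adjusted p = 3.74e-06). Sf3b2 went from 43.9 ± 1.24 through 32.1 ± 1.11 to 23.5 ± 0.319 FPKM (SD, n = 3), with -0.44 and -0.43. Sf3a2 fell in M1 by 1.26, from 18.8, 17.7 and 20.6 to 7.18, 7.85 and 6.99, and 16.1% of its exon bases are shared with Plekhj1.

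Prpf proteins serve in the tri-snRNP, the Prp19 complex and the catalytic core. Of their 13 genes 11 were lower and 1 higher in M1 than in Mock, against 55.3% and 30.5% of all rows tested, with a median of -0.76. With RLE scaling 9 were lower and 2 higher, against 42.1% and 43.7% of all rows. In I against M1 the median was -0.085, near the -0.065 of all rows. Prpf19, the ubiquitin ligase of the Prp19 complex, fell most, with 24.5, 23.9 and 23.9 FPKM in Mock, 6.91, 6.503 and 6.597 in M1 and 5.502, 6.25 and 5.77 in I. Its difference was -1.71 ± 0.044 (SE; adjusted p = 2.27e-11) in M1, and the further -0.17 in I was lost with RLE scaling (adjusted p = 0.0504). Prpf8, the scaffold of the catalytic centre, was the most abundant of the family, at 83.3, 80.2 and 79.8 FPKM in Mock, 40.9, 40.8 and 39.3 in M1 and 34.3, 37.5 and 35.7 in I. It fell by 0.99 and then by 0.17 (adjusted p = 2.44e-10 and 0.00155).

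Prpf31, a tri-snRNP protein that bridges U4 and U6 to U5, stood at 17.5, 17.6 and 19.2 FPKM in Mock, 6.403, 6.94 and 7.17 in M1 and 5.94, 6.47 and 6.15 in I. It fell in M1 by 1.29 (adjusted p = 7.17e-10), and its -0.12 in I lay at the threshold (adjusted p = 0.052). Prpf38a, a protein of the precatalytic spliceosome, was the Prpf gene called higher in M1, with 12.1, 11.9 and 12.3 FPKM in Mock, 17.8, 17.02 and 18.5 in M1 and 17.3, 15.998 and 16.7 in I. Its difference from Mock was 0.52 ± 0.039 (SE; adjusted p = 1.86e-07), and M1 and I overlap (-0.085; adjusted p = 0.0795). Its paralog Prpf38b was lower in M1 and higher in I than in M1, from 29.5 ± 0.0836 to 16.3 ± 0.804 and then 18.1 ± 0.397 FPKM (SD, n = 3), with -0.82 and 0.14.

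Lsm proteins form Sm-like rings: Lsm2 to Lsm8 on U6 RNA in the nucleus, and Lsm1 to Lsm7 on the 3′ ends of mRNAs bound for decay in the cytoplasm. The 13 Lsm genes were the least lowered family in M1, with 7 lower (53.8%), 4 higher (30.8%) and a median of -0.12. These shares lay near the 55.3% lower and 30.5% higher of all rows tested, whose median was -0.23. With RLE scaling 5 were lower, 7 higher and the median was 0.18, against 42.1%, 43.7% and 0.019 for all rows. Of the 7 genes Lsm2 to Lsm8, 6 were lower in M1 and 7 in I against M1, where 55.3% and 39.3% of all rows were lower. With RLE scaling 5 and 6 were lower, against 42.1% and 32.5% of all rows. Their summed level was 93.9 ± 2.62 FPKM in Mock, against 61.3 ± 3.30 in M1 and 44.9 ± 0.886 in I (SD, n = 3 each). None of the other 6 was called lower in M1 apart from Lsm14a (-0.12, and 0.18 with RLE scaling).

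Lsm2 fell most, with 12.6, 12.8 and 11.2 FPKM in Mock, 3.19, 3.003 and 2.96 in M1 and 1.65, 2.02 and 2.19 in I. Its differences were -1.70 ± 0.072 (SE; adjusted p = 1.28e-09) and -0.46 ± 0.072 (SE; adjusted p = 0.000236). Lsm5 stood at 12.2, 11.3 and 13.1 FPKM in Mock, 5.14, 6.698 and 6.82 in M1 and 3.51, 2.61 and 3.61 in I. Its iodide difference, -0.77 ± 0.11 (SE; adjusted p = 0.000123), was the deepest of the 75 genes. Lsm4, the most abundant of the ring, was 44.4, 45.2 and 48.1, 37.1, 41.5 and 38.2 and 31.5, 31.8 and 30.5 in Mock, M1 and I. It fell with iodide by 0.31 (adjusted p = 0.000118), while its M1 difference changed sign with the scaling (-0.23 and 0.075). Several ring genes are low, and in Lsm7 I replicate 2, at 0.952 FPKM, lay apart from the other I libraries, at 1.77 and 1.79.

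Lsm8 and Lsm1 are the subunits that set the U6 ring and the decay ring apart, and their genes differed in opposite directions in I against M1. Lsm8 (chr6:18848579-18855751, plus strand) was measured at 5.96, 5.89 and 5.81 FPKM in Mock, 5.89, 5.78 and 5.48 in M1 and 3.46, 3.11 and 3.23 in I. Mock and M1 overlap, and the 3 I libraries lie well below both. The difference of I from M1 was -0.66 ± 0.046 (SE; adjusted p = 5.57e-07), whereas that of M1 from Mock was -0.035 (adjusted p = 0.477), or 0.23 and called with RLE scaling. Lsm1 was measured at 9.09, 8.402 and 9.099 FPKM in Mock, 8.904, 9.55 and 9.01 in M1 and 10.7, 10.2 and 10.5 in I, with I above both other groups. It rose with iodide by 0.18 ± 0.042 (SE; adjusted p = 0.00375). The ratio of Lsm1 to Lsm8 within a library, which a single factor per library does not move, was between 1.43 and 1.57 in Mock, 1.51 and 1.65 in M1, and 3.08 and 3.29 in I. This pair was named for its roles, after the values had been seen.

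Lsm10 and Lsm11 take the place of SmD1 and SmD2 in the U7 snRNP, which trims histone pre-mRNAs. Both were higher in M1 than in Mock, unlike Snrpd1 and Snrpd2. Lsm10 stood at 10.8, 10.8 and 9.93 FPKM in Mock, 15.3, 15.5 and 16.7 in M1 and 17.9, 16.97 and 17.03 in I. Its M1 difference was 0.55 ± 0.044 (SE; adjusted p = 3.71e-07), and its small further rise in I, 0.12, was lost when I replicate 1, M1 replicate 1 or M1 replicate 2 was left out (adjusted p of 0.11, 0.1 and 0.0969). Lsm11 stood at 1.69, 1.72 and 1.76 FPKM in Mock, 4.32, 4.27 and 4.27 in M1 and 2.62, 3.31 and 2.96 in I. It had the largest rise of the set in M1, 0.96 ± 0.061 (SE; adjusted p = 4.39e-08), or 2.49-fold, and fell with iodide by 0.42 (adjusted p = 0.000138). Lsm12, an Lsm protein outside the rings, rose in M1 and fell with iodide, with 25.7, 28.3 and 27.1 FPKM in Mock, 34.8, 35.4 and 35.7 in M1 and 28.7, 26.1 and 28.1 in I. Its differences were 0.37 in M1 and -0.34 in I against M1, and that of I from Mock was 0.030 on the FPKM scale (adjusted p = 0.515) and 0.40 with RLE scaling.

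**Figure D4:**
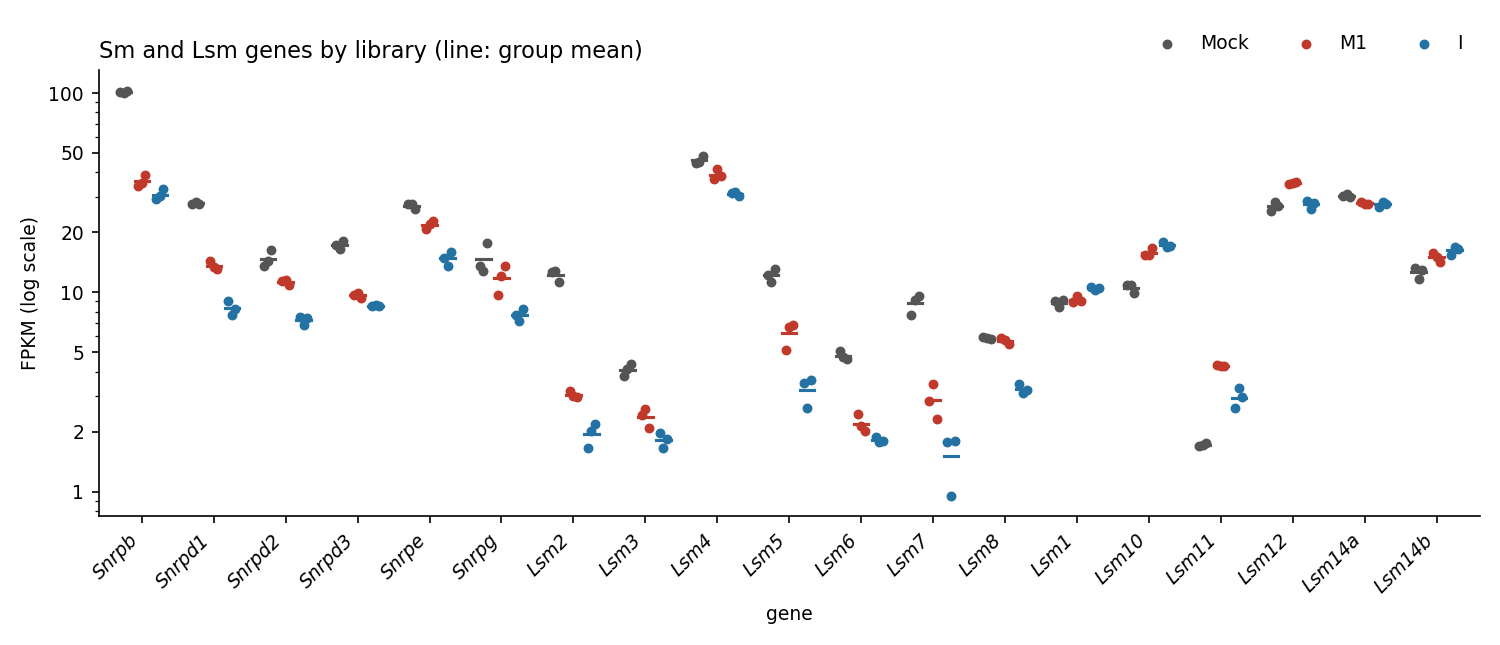
FPKM of the 6 Sm ring genes measured and the 13 Lsm genes in each of the 9 libraries on a log axis; points are libraries (grey Mock, red M1, blue I) and lines are group means of 3. The I libraries of Lsm8 (3.11 to 3.46 FPKM) lie below its Mock and M1 libraries, and those of Lsm1 (10.2 to 10.7) lie above them.

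The calls of both steps were set side by side. The steps share the M1 libraries, so a library error in M1 pushes them in opposite directions, and no test of their relation was made. On the FPKM scale, in 22 members M1 was lower than Mock and I higher than M1, a pattern of 14.4% of all rows tested: 7 SR genes (Srsf1, Srsf2, Srsf3, Srsf5, Srsf6, Srsf10 and Srsf11), 10 hnRNP genes (Hnrnpa0, Hnrnpa2b1, Hnrnpd, Hnrnpdl, Hnrnph2, Hnrnph3, Hnrnpl, Hnrnpm, Hnrnpr and Hnrnpu), Sf3b1, Sf3b3, Prpf4, Prpf6 and Prpf38b. In 32 members both steps were lower on the FPKM scale, a pattern of 19.7% of all rows, among them all 10 Snrp genes, 6 Sf3 genes, Lsm2 to Lsm7, Prpf8, Prpf19, Srsf7 and 6 hnRNP genes (Hnrnpa1, Hnrnpa3, Hnrnpc, Hnrnpk, Hnrnpll and Hnrnpul1). With RLE scaling 23 members had the first pattern (13.6% of all rows), 19 of them among the 22, and 17 members, all of them among the 32, had the second (12% of all rows). Of the Snrp genes 4 (Snrpa, Snrpb, Snrpb2 and Snrpd1) were among these 17. Hnrnpc, Snrpc and Sf3b5 were not, since they were called higher in M1 with that scaling. On the FPKM scale the part of the M1 fall that was regained in I had a median of 13.8% of the difference in mean FPKM over the 22. These 22 were picked for a fall and then a rise, so a share above 0 was set by the choice. The 32 members that fell again are not in this median, which is no measure of recovery over the whole set. It was 2.18% for Srsf6, 9.93% for Srsf2, 17.6% for Hnrnpa2b1 and 58.6% for Sf3b1, and exceeded the fall for Hnrnph3 (393%) and Hnrnpdl (111%). With RLE scaling Sf3b1 ended above Mock (0.14), the falls of Hnrnph3 and Prpf6 in M1 were not called and Hnrnpdl was higher in M1 (0.13). The shares and their median were computed on the FPKM scale alone. RLE factors differ between the groups, so the share of every gene depends on the scaling.

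The rest of the splicing machinery, in lists that were drawn up with earlier results of these data known, was counted in the same way, against the 55.3% lower and 30.5% higher of all rows tested in M1 against Mock (42.1% and 43.7% with RLE scaling). Of 31 rows for snRNP proteins outside the name rule 22 were lower and 3 higher in M1 (21 and 9 with RLE scaling). Txnl4a is listed 2 times among these rows. U2af2, which reads the 3′ splice site, was at -1.26, and the U5 GTPase Eftud2 was at -1.50. Of 15 helicases listed as spliceosomal or tied to splicing, 14 were lower and 1, Dhx38 (0.22), higher (9 and 2 with RLE scaling). Snrnp200 is counted in this list and among the snRNP rows. Dhx9 was 44.5 ± 1.64 FPKM in Mock, against 4.96 ± 0.2703 in M1 and 7.95 ± 0.519 in I (SD, n = 3). Of 29 genes of the Prp19 complex, catalytic step and exon junction complex 21 were lower and 6 higher (13 and 9 with RLE scaling), and their median of -0.30 lay near the -0.23 of all rows. Of 15 snRNP assembly genes 13 were lower and 1 higher (13 and 2 with RLE scaling). Of 19 SR kinases and SR-related genes it was 14 and 3 (12 and 6), and of 44 other splicing regulators 41 and 1 (35 and 6). Sfpq, a paraspeckle protein, fell from 99.8 ± 0.988 to 11.6 ± 0.3795 FPKM and was 11.5 ± 0.459 in I (SD, n = 3), and Clk3, a kinase of SR proteins, rose from 5.25 ± 0.338 to 15.9 ± 0.189 (SD, n = 3; 1.44; adjusted p = 6.28e-11).

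In I against M1 24.9% of all rows tested were higher and 39.3% lower (30.4% and 32.5% with RLE scaling), and no test compared the lists with each other. Helicases had 8 higher and 3 lower of 15 (10 and 2 with RLE scaling), with Dhx9 at 0.59, Ddx46, which remodels U2, at 0.56 and Dhx38 at 0.53. SR kinases and SR-related genes had 7 higher and 5 lower (11 and 3 with RLE scaling), with the speckle scaffold Son at 0.37 and Clk1 at 0.29, but Pnn at -0.43. The assembly genes that load Sm rings on snRNA had 3 higher and 8 lower (3 and 4 with RLE scaling), with Smn1 at -0.45, Gemin5 at -0.34 and Gemin2 at -0.39. The Prp19, catalytic and exon junction list had 3 higher and 15 lower (6 and 11 with RLE scaling). Its deepest fall was that of Magohb, an exon junction core protein, at 2.97, 3.54 and 3.26 FPKM in Mock, 4.06, 3.75 and 4.52 in M1 and 1.32, 1.27 and 1.06 in I (-1.21 ± 0.074 (SE; adjusted p = 2.11e-07)), and its paralog Magoh had -0.45. The snRNP list outside the name rule had 5 higher and 11 lower, but 12 higher and 9 lower with RLE scaling, with Snu13 of the U4 snRNP at -0.50. The Txnl4a rows of this list went opposite ways, at 0.22 and -0.36, and both were called. Other splicing regulators had 8 higher and 18 lower (11 and 14 with RLE scaling), with Nono at -0.43 and Pcbp2 at -0.50.

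The partners of the Lsm1 to Lsm7 ring in mRNA decay, among them the decapping enzyme Dcp2 and the helicase Ddx6, had 8 lower of 10 and none higher in M1, but 7 lower and 2 higher with RLE scaling. With iodide 5 were higher and 2 lower (6 and 1 with RLE scaling), against the same shares of all rows as above. Cnot1, the scaffold of the deadenylase complex, was -1.13 and then 0.42, and Edc3 was 0.34 with iodide. Lsm1 moved the same way with iodide, while Lsm2 to Lsm7, which the decay ring shares with the U6 ring, fell.

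Other measures moved with these results, and their part in them was not tested. Of 14 genes of proliferating cells 13 were lower and 1 (Myc) higher in M1, with both scalings. Among all rows tested 55.3% were lower and 30.5% higher (42.1% and 43.7% with RLE scaling). The summed level of the 14 genes was 484 to 489.5 FPKM across the Mock libraries, 106 to 111 across M1 and 106 to 109 across I. With iodide 11 of the 14 were lower and 3 higher, with both scalings, among them Rrm2 (-0.93), Mcm5 (-0.62) and Mcm7 (0.50). Of all rows 39.3% were lower and 24.9% higher with iodide (32.5% and 30.4% with RLE scaling). Myc itself went from 0.289 ± 0.0571 to 5.402 ± 0.0361 and 9.28 ± 0.667 FPKM (SD, n = 3). The summed level of the 10 macrophage markers was 4718 to 4808 FPKM across the Mock libraries, 3347 to 3457 across M1 and 2454 to 2567 across I. The markers did not all move with this sum. Of the 9 tested, 4 were higher and 5 lower in M1 against Mock (4 and 4 with RLE scaling). In I against M1, 2 were higher and 7 lower with both scalings, against the same shares of all rows.

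Gene length also ran with the difference of I from M1. Across the 75 genes Spearman's rho between the difference of I from M1 and summed exon length was 0.404, and across the 10934 rows tested with a length it was 0.191. These are correlations across genes of the same libraries, given as a description, and were computed after the values had been seen. The families differ in length: the median was 2738 bases for Snrp, 2892 for Lsm, 3841 for Sf3, 4399 for Srsf, 5671 for Prpf and 5898 for Hnrnp genes. Among genes of 2000 to 4000 bases the median iodide difference was -0.18 in 26 members and -0.11 in 3255 rows, and above 8000 bases it was 0.13 in 10 members and 0.030 in 1811 rows. The part of length in the result was not tested. In M1 against Mock rho was -0.227 in members and -0.206 in all rows.

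**Figure D5:**
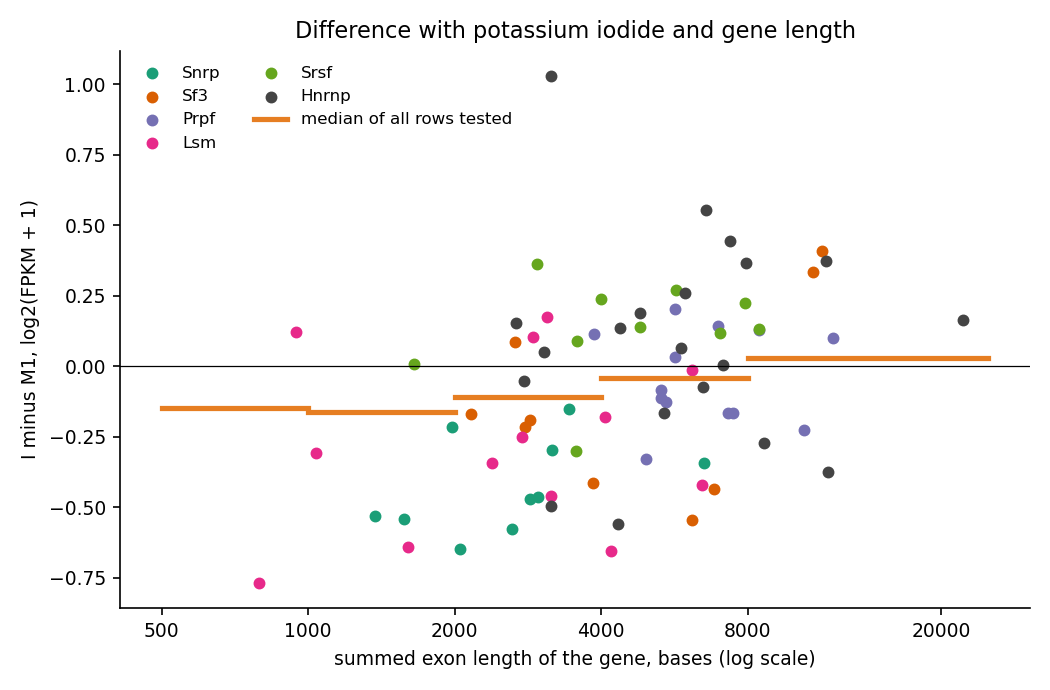
Difference of I from M1 on the log2(FPKM + 1) scale against the summed exon length in bases (log axis) for the 75 genes, coloured by family; bars are medians of all rows tested in the same length ranges. Snrp and Lsm genes lie mostly at the short end and below 0. The bars lie at -0.15 in the shortest range and -0.16 in the next, and then climb to 0.030 in the longest.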

How the data were processed

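Libraries were made with NEBNext reagents from poly(A)-selected RNA of 9 samples, 3 per group, per the labels' protocols. The deposited values were read as FPKM, since no header names the unit: multiplied by the summed exon length of GENCODE release 21, 98.4% to 98.6% of them were whole fragments within 0.05. Per the submitters' processing notes the authors used GRCm38 with HISAT2 2.2.1, after fastp 0.20.1, and featureCounts 2.0.1 from Subread. Settings, strand use and gene models were not given in the sources used here. Every row is above 0 in all 9 libraries.

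From the FPKM values log2(FPKM + 1) was fitted with limma 3.58.1 in R 4.3.3, with 1 term per group, moderated variances with an intensity trend, and contrasts between groups. Rows with at least 0.5 FPKM in at least 3 libraries were tested (11156 of 12474), and p-values were Benjamini-Hochberg adjusted over all of them. Differences on this scale understate those of low genes, and folds are ratios of mean FPKM. The model was tested on simulated data. Within groups, libraries correlated at 0.9968 to 0.9973 (Pearson, log2 scale) and differed by more than sampling noise. Fragments allowed a limma-voom fit as an alternative for 74 members. Genes with values for every library are, per family and comparison, up to 2 with the largest rise and fall among called members with at least 10 FPKM in the higher group and no overlap, and a set of key genes. Others were picked after their values were seen, and any member may be named. Some results by gene are not reported here. From the other lists up to 3 genes with the smallest p per comparison are named, and Magoh, Mcm7 and Myc beside them. The members, gene lists, motifs and rules were chosen with earlier results of these data known. Alternatives were RLE and quantile scaling, another pseudocount, no filter and a stricter filter, the 2 compared groups alone, a replicate block, limma-voom and each library left out.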

Additional observations from a re-analysis of the deposited data

How the results depend on the processing

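The counts of members called lower, in all 3 comparisons, and of those called higher in I against M1 stayed within 1.5 times under every alternative run. For M1 against Mock the 5 called higher became 13 with RLE scaling and 9 with quantile normalization. The median of -0.76 became -0.46 with RLE scaling, -0.60 with quantile normalization, -0.82 with limma-voom and -0.84 with a pseudocount of 0.1. For I against M1 the median of -0.085 became -0.022 with RLE scaling and -0.042 with quantile normalization. For I against Mock the 6 called higher became 11 with RLE scaling, and the median of -0.90 became -0.57 with RLE scaling, -0.69 with quantile normalization, -0.97 with limma-voom and -0.97 with a pseudocount of 0.1. Both scalings move the bulk of genes by construction. With each library left out in turn, 5 members were higher and 65 to 67 lower in M1 against Mock (median -0.76 to -0.74), 20 to 25 higher and 33 to 37 lower in I against M1 (-0.11 to -0.081), and 6 higher and 66 to 67 lower in I against Mock (-0.93 to -0.86). Where this left a group with 2 libraries, the model's pooled spread was used.

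Some members changed direction, and not all of them are listed here. In M1 against Mock, Hnrnpc became 0.12, Snrpc 0.12, Lsm4 0.075 and Lsm8 0.23 with RLE scaling, and Snrpc 0.14 and Lsm8 0.30 with quantile normalization. Sf3b5 (0.16), Lsm14a (0.18) and Hnrnpdl (0.13) also became higher in M1 against Mock with RLE scaling. In I against Mock, Sf3b1 became 0.14, Lsm14a 0.23 and Prpf6 0.24 with RLE scaling. Prpf31 in I against M1, not called as reported, was called with limma-voom (adjusted p = 0.036), with a pseudocount of 0.1 (0.0467) and with the stricter filter (0.0451). In the same comparison Srsf10 lost its call without the filter (0.0505), Lsm10 with limma-voom (0.136), and Hnrnpk (0.0532) and Srsf10 (0.084) with only the compared groups fitted.

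Replicate numbers are shared between groups. Libraries with the same number did not deviate together (r of -0.115 to 0.047), so the numbers were not taken to pair them. With the replicate block the counts were 5 higher and 67 lower in M1 against Mock, and Lsm10 lost its call in I against M1 (limma adjusted p = 0.0554) while Prpf31 gained one (0.0341). Reads shared with processed copies or overlapping genes cannot be separated here: in 8 members at least 10% of exon bases lie in another gene.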
